A study of Mus musculus with 4 samples.

Results

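The lymphotoxin, BAFF and APRIL genes of the TNF family were examined in bulk RNA of murine TNBC tumors. Members were chosen by name, as every probe set whose only symbol in the array annotation was 1 of 10 listed genes. All 10 genes were measured, by 14 of the 45037 probe sets tested. They were the ligands Lta, Ltb, Tnfsf14, Tnfsf11, Tnfsf13b and Tnfsf13 and the receptors Ltbr, Tnfrsf13c, Tnfrsf13b and Tnfrsf17.

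Tumors were made from 50000 cherry-tagged 4T1Ch9 cells, a mammary carcinoma line of Balb/c background that lacks the usual drug targets of breast cancer, placed in the mammary fat pad of female wild-type mice and left to establish for 10 days. Mice then received vehicle (a PEG and solutol carrier) or trametinib, a MEK1/2 inhibitor (MEKi), at 1 mg/kg each day for 7 days, and Affymetrix MG-430PM arrays were run, 2 for each label. Nothing in the sources ties the arrays of a label to different animals. A p-value here therefore reflects the spread between arrays alone, and whether that spread is between animals or technical was not tested. Hosts kept their own lymphocytes, and the RNA is that of whole tumor tissue, in which fewer cells of a type and less RNA per cell cannot be told apart.

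Lymphotoxin signaling builds and maintains lymphoid organs. Lymphocytes and lymphoid tissue inducer cells carry a membrane complex of the Lta and Ltb products, which engages the receptor encoded by Ltbr on stromal and myeloid cells and drives chemokine genes through the alternative NF-κB route. BAFF (Tnfsf13b) keeps mature B cells alive through BAFF-R (Tnfrsf13c), while BAFF and APRIL (Tnfsf13) both bind TACI (Tnfrsf13b) and BCMA (Tnfrsf17), of which BCMA supports long-lived plasma cells.

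The arrays did not group by label, and this touches every result below. Pearson's r over all probe sets (not independent of each other) reached 0.992 for MEKi 1 with vehicle 2 and 0.978 for MEKi 2 with vehicle 1, against 0.927 within the MEKi label and 0.959 within the vehicle label. A difference of over 2-fold separated MEKi 1 and vehicle 2 in 421 probe sets and MEKi 1 and MEKi 2 in 7497. Expression is given as the deposited RMA value on the log2 scale, where 1 unit is a 2-fold difference. The 25th percentile of an array lay between 3.85 and 3.88, and values near it are close to the floor, where a difference is likely to be understated. Each array is named by its label throughout. Whether any labels were exchanged was not settled here, and every MEKi minus vehicle value below holds only for the labels as given.

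Promoters are shown for the 4 members in which a searched motif was found. Sequences are from RefSeq (GRCm38.p6), run 5′ to 3′ on the strand of the gene from 250 bases before to 50 bases after the start site, and carry capitals at the matched letters. Ltb, on chr17:35194257-35194556 of the plus strand, holds a κB match, which is a match to GGANNTTCC on the opposite strand, beginning at position −87 from the start. Tnfsf13b (chr8:10006383-10006682, plus strand), Tnfsf13 (chr11:69685505-69685804, minus strand) and Tnfsf14 (chr17:57194132-57194431, minus strand) hold an AP-1 match, TGANTCA, which reads as the same motif on both strands.
Ltb: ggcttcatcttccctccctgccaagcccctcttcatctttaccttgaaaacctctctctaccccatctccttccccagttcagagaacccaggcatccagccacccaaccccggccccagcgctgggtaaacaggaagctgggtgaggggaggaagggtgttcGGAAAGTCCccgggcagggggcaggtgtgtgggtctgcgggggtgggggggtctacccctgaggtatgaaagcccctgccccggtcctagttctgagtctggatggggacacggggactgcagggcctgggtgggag
Tnfsf13b: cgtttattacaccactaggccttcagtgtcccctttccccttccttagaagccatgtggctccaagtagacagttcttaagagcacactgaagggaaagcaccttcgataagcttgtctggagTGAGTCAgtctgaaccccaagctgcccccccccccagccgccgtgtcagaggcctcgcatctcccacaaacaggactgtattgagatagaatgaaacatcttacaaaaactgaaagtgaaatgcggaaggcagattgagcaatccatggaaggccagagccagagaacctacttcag
Tnfsf13: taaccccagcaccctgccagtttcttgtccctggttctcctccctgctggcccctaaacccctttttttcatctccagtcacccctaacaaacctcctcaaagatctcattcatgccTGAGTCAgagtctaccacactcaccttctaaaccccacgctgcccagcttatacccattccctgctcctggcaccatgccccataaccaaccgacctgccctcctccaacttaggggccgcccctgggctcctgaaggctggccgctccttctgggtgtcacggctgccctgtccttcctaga
Tnfsf14: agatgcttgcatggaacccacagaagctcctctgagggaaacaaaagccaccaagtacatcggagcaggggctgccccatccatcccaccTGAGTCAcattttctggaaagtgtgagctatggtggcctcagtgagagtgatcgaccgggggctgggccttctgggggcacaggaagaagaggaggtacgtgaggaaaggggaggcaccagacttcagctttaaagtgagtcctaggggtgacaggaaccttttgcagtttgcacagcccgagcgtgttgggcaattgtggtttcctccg

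The κB letters were found in 1 of 11 member promoters and in 4.26% of all 32851 promoters of this length. The AP-1 letters were found in 4 of the 11, 2 of which are overlapping windows of Tnfsf13b that share a single match, and in 7.81% of all promoters. The letters CCGGAAGT (ETS), ATGCAAAT (octamer) and GAGGAAGT (PU.1) were found in 0 of the 11, and in 3.89%, 1.74% and 3.2% of all promoters. A match is a run of letters and was not tested as a binding site. The 3 genes with the AP-1 letters did not share a pattern among the arrays: as described below, Tnfsf13b was higher in MEKi 1 and vehicle 2, Tnfsf13 was lower in the same arrays, and Tnfsf14 varied little.

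Among the members, the gene of the BAFF receptor set the arrays furthest apart, and those of TACI and BCMA had the same high arrays. Tnfrsf13c, which encodes the BAFF receptor of mature B cells, read 4.93 and 10.98 in vehicle 1 and 2, and 11.41 and 4.71 in MEKi 1 and 2. MEKi 1 and vehicle 2 were therefore high and the other arrays low, so that the labels overlapped. The means were 8.06 ± 4.74 for MEKi and 7.96 ± 4.28 for vehicle (SD, n = 2 each). Tnfrsf13b, which encodes TACI, read 8.04 and 10.53 in vehicle 1 and 2 and 10.72 and 7.14 in MEKi 1 and 2, with the same arrays high. Tnfrsf17, which encodes the plasma cell receptor BCMA, read 4.06 and 6.22 in the vehicle arrays and 5.65 and 3.53 in the MEKi arrays, in the same order of labels. It was below the 25th percentile in 1 of the 4 arrays.

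By label, the 3 receptor genes differed by less than the spread between arrays of a label. The log2 fold change of MEKi over vehicle in limma was 0.10 for Tnfrsf13c (SE 3.31, adjusted p = 1). For Tnfrsf13b it was −0.36 (SE 1.60) and for Tnfrsf17 −0.55 (SE 1.12), each with an adjusted p of 1. The direction rested on single arrays. Without MEKi 1 and without vehicle 1 the estimate for Tnfrsf13c was −3.25 and −2.93, against 3.45 and 3.12 without MEKi 2 and without vehicle 2. Tnfrsf13b ranged from −2.15 to 1.44 and Tnfrsf17 from −1.64 to 0.53 over the same omissions, with positive values for both when MEKi 2 or vehicle 2 was left out.

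The ligands of these receptors ran in opposite directions among the arrays. Tnfsf13b, which encodes BAFF, read 5.54 and 8.15 in vehicle 1 and 2, and 8.18 and 4.43 in MEKi 1 and 2. Tnfsf13, which encodes APRIL, read 8.82 and 7.89 in the vehicle arrays and 7.84 and 9.0 in the MEKi arrays, and was thus lowest in the arrays where Tnfsf13b was highest. Between MEKi 1 and MEKi 2 the log2 difference was 3.75 for Tnfsf13b and −1.16 for Tnfsf13. Between vehicle 2 and vehicle 1 it was 2.61 and −0.93. These are differences between single arrays and carry no test.

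By label, the log2 fold change in limma was −0.54 for Tnfsf13b (SE 1.68, adjusted p = 1) and 0.07 for Tnfsf13 (SE 0.57, adjusted p = 1). For Tnfsf13b it was 1.34 without MEKi 2 and 0.77 without vehicle 2, and −2.41 and −1.84 without MEKi 1 and vehicle 1. For Tnfsf13 it turned negative in the first 2 cases, at −0.51 and −0.39, and was 0.65 and 0.54 in the others. A further pair of Tnfsf13b probe sets gave smaller values. The first, which was below the 25th percentile in 2 arrays, read 3.83 and 4.17 in vehicle 1 and 2 and 5.10 and 3.66 in MEKi 1 and 2. The second lay below it in all 4 arrays. With the mean of the 3 probe sets the fold change of Tnfsf13b was 0.07. A probe set annotated to Tnfsf13, Tnfsf12 and the read-through gene Tnfsfm13 together was not used, and whether the Tnfsf13 probe set also reads the read-through RNA was not tested.

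**Figure D1:**
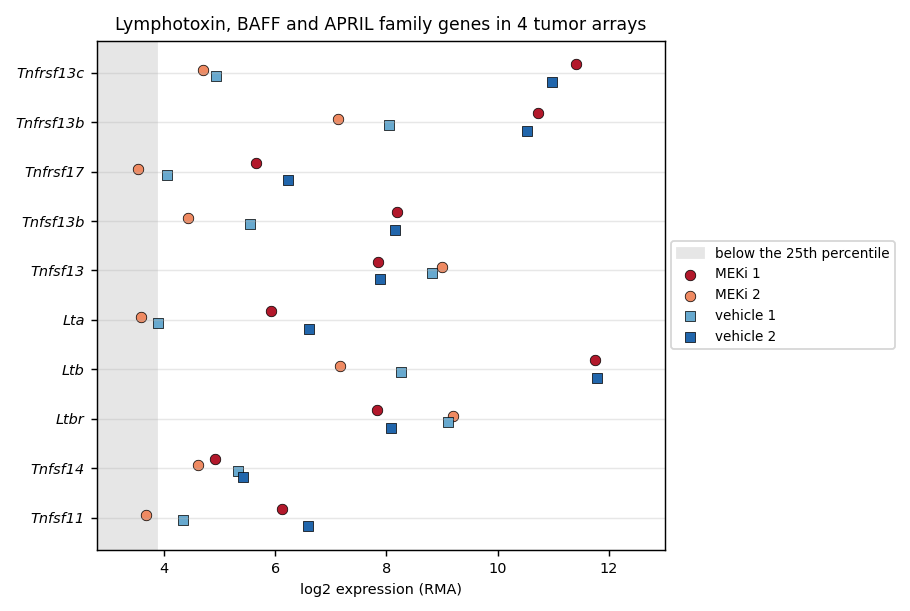
Log2 expression (RMA, horizontal axis) of the 10 member genes in the 4 arrays, drawn as circles (MEKi) and squares (vehicle), with the range below the 25th percentile shaded. The points of Tnfrsf13c fall at 11.41 (MEKi 1) and 10.98 (vehicle 2) on one side and 4.71 (MEKi 2) and 4.93 (vehicle 1) on the other, while Ltbr and Tnfsf13 run the other way.

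Both lymphotoxin subunit genes were higher in MEKi 1 and vehicle 2, and the gene of their receptor was lower in these arrays. Ltb, which encodes the membrane-anchored subunit, read 8.26 and 11.79 in vehicle 1 and 2, and 11.75 and 7.16 in MEKi 1 and 2. Lta, which encodes the subunit that can also be secreted, read 3.89 and 6.60 in the vehicle arrays and 5.92 and 3.59 in the MEKi arrays, with the low values near the floor. Ltbr, which encodes the lymphotoxin β receptor, read 9.10 and 8.07 in vehicle 1 and 2 and 7.82 and 9.20 in MEKi 1 and 2. In each of the 3 genes the labels overlapped, and the difference within a label was larger than that between labels.

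Ltb and Lta are the RefSeq neighbors of Tnf on chromosome 17, 1 on each side. Tnf, the cytokine gene that gives the family its name, read 4.92 and 6.55 in the vehicle arrays and 6.31 and 5.01 in the MEKi arrays. Within the MEKi label the log2 difference was 4.59 for Ltb, 2.33 for Lta and 1.30 for Tnf, and within the vehicle label it was 3.54, 2.71 and 1.63 (vehicle 2 minus vehicle 1). Differences of Lta are limited by its low readings.

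By label, limma gave log2 fold changes of −0.57 for Ltb (SE 2.13), −0.49 for Lta (SE 1.32) and −0.08 for Ltbr (SE 0.65), and the adjusted p was 1 for each. Without MEKi 2 these were 1.72, 0.67 and −0.77, and without vehicle 2 they were 1.19, 0.86 and −0.59. Without MEKi 1 they were −2.87, −1.66 and 0.61, and without vehicle 1 they were −2.34, −1.85 and 0.44. The sign of all 3 thus depended on single arrays.

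Tnfsf14 differed from the other members in that its arrays lay close together within each label. It encodes LIGHT, a ligand of the lymphotoxin β receptor and of HVEM, and read 5.34 and 5.43 in vehicle 1 and 2 and 4.92 and 4.60 in MEKi 1 and 2. Both MEKi arrays were below both vehicle arrays, an arrangement found in 2 of the 14 member probe sets, both of Tnfsf14, and in 9.86% of all probe sets. The opposite arrangement was found in 1 of 14 and in 12.1% of all, and that member was the Tnfsf13b probe set below the 25th percentile throughout.

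The log2 fold change of Tnfsf14 was −0.62 (SE 0.20), with a limma p of 0.0386 before adjustment and an adjusted p of 1. It was the 1 probe set of the 14 members with an unadjusted limma p under 0.05, against 406 of all 45037 probe sets. Over the alternatives that kept all arrays, apart from a crossed pairing added later, the unadjusted limma p ran from 0.0386 to 0.1099. It was highest with an intensity trend, and was 0.1054 with the replicate block. Without MEKi 2 the log2 fold change was −0.47, and without MEKi 1 it was −0.78. The other probe set of Tnfsf14 read 4.17 and 4.12 in the vehicle arrays and 4.01 and 3.78 in the MEKi arrays, and differed by −0.25 on the log2 scale between labels (SE 0.18, adjusted p = 1). Both probe sets read low on these arrays, and with 2 arrays against 2 an exact permutation test of a single gene cannot give a two-sided p below 0.333.

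Tnfsf11 followed the lymphotoxin subunits. It encodes RANKL, a ligand needed for lymph node formation, for osteoclasts and for the mammary epithelium of pregnancy, and read 4.35 and 6.58 in vehicle 1 and 2 and 6.13 and 3.67 in MEKi 1 and 2. Its log2 fold change by label was −0.57 (SE 1.23, adjusted p = 1), and 0.66 and 0.55 without MEKi 2 and without vehicle 2. Its second probe set read 4.16 and 4.86 in the vehicle arrays and 5.15 and 3.95 in the MEKi arrays, with a fold change of 0.04 (SE 0.53). The receptor gene Tnfrsf11a (RANK) read between 4.90 and 5.47, and the decoy receptor gene Tnfrsf11b (osteoprotegerin) between 3.86 and 4.87, without the pattern of Tnfsf11.

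By label, 0 of the 14 member probe sets were called between MEKi and vehicle. Calls were made at an adjusted p under 0.1 in limma, with the unadjusted p under 0.05 and over 1.5-fold between label means (two-sided, Benjamini-Hochberg over all 45037 probe sets), and 0.0% of all probe sets met it, with 406 at an unadjusted p under 0.05. The median log2 fold change of the 10 genes was −0.52, against 0.01 over all genes with 1 symbol. It was −1.73 and −1.66 without MEKi 1 and without vehicle 1, and 0.67 and 0.66 without MEKi 2 and without vehicle 2. Of the 10 genes, 9 changed sign under these omissions. Tnfsf14 could not, since its labels did not overlap.

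Within a label the members lay far apart. Their values spanned over 2 log2 units among the 4 arrays in 7 of 14 probe sets, against 6.49% of all probe sets. Between MEKi 1 and MEKi 2, 9 of 14 were higher past 2-fold in MEKi 1 (8.57% of all) and 2 of 14 were lower (8.07%). Between vehicle 2 and vehicle 1, 7 of 14 were higher past 2-fold in vehicle 2 (4.56% of all) and 1 of 14 was lower (5.39%). The median of the 10 genes was 2.39 in the first difference and 2.36 in the second, against −0.04 and 0.02 over all genes. Since members share cells and arrays, they are not independent of each other.

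**Figure D2:**
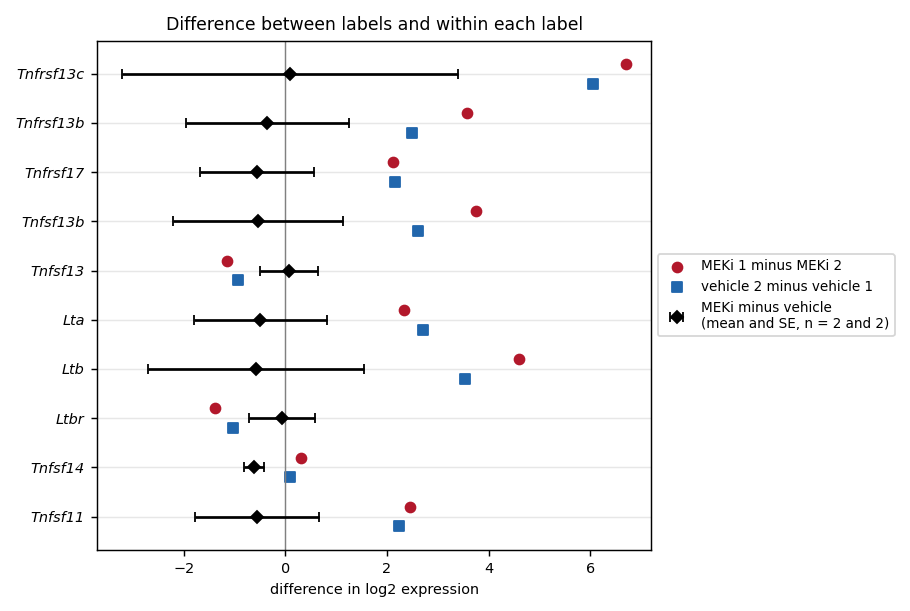
Difference in log2 expression (horizontal axis) of each member gene, with the MEKi minus vehicle estimate and its SE (black diamonds, 2 arrays per label) and the difference between the 2 arrays of each label (red circles and blue squares). For Tnfrsf13c the differences within a label are 6.70 and 6.05 and that between labels is 0.10, while Tnfsf14 is the 1 gene whose estimate is larger than both of its differences within a label.

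Arrays of the same number gave opposite answers. Between MEKi 1 and vehicle 1, 8 of 14 member probe sets were higher past 2-fold in MEKi 1 (5.61% of all) and 1 was lower (7.02%). Between MEKi 2 and vehicle 2, 2 of 14 were higher past 2-fold in MEKi 2 (6.9% of all) and 7 were lower (7.27%). For Ltb these differences were 3.49 and −4.64, for Tnfsf13b 2.64 and −3.72, and for Tnfrsf13c 6.47 and −6.28. Across labels and numbers the members agreed more closely, as 0 of 14 differed past 2-fold between MEKi 1 and vehicle 2 (0.386% of all higher and 0.548% lower), with a range of −0.68 to 0.42 for the 10 genes. Between MEKi 2 and vehicle 1, 0 of 14 were higher past 2-fold (1.59% of all) and 2 were lower (3.52%), namely Ltb at −1.10 and Tnfsf13b at −1.11. The differences across labels and numbers were added after the values of the arrays were seen.

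Marker genes of lymphocytes and lymph node tissue were highest in the same arrays as 7 of the 10 members, which leaves out Ltbr, Tnfsf13 and Tnfsf14. For 10 B cell genes the median log2 level was 4.17 and 10.56 in vehicle 1 and 2, and 10.86 and 4.22 in MEKi 1 and 2. All 10 were higher in MEKi 1 than in MEKi 2 and in vehicle 2 than in vehicle 1, among them Ms4a1 (CD20), which read 4.15 and 11.61 in the vehicle arrays and 12.21 and 3.97 in the MEKi arrays. Pax5, a transcription factor that defines the B lineage, stayed between 4.10 and 4.72 on its 1 probe set. Plasma cell genes (4 measured) had medians of 7.55 and 11.03 in vehicle 1 and 2 and 11.18 and 6.29 in MEKi 1 and 2. All 4 had the same direction, but past 2-fold 3 were higher in MEKi 1 than in MEKi 2 and 2 in vehicle 2 than in vehicle 1. Xbp1 stayed between 11.91 and 12.70 and Prdm1 between 7.08 and 8.17, so the medians overstate the difference of these genes.

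T cell genes (8 measured) had medians of 6.26 and 9.88 in the vehicle arrays and 9.91 and 5.44 in the MEKi arrays. Genes of high endothelial venules and lymph node stroma (6 measured), the tissue where lymphotoxin acts on stroma, had medians of 3.69 and 9.16 in vehicle 1 and 2 and 8.82 and 3.95 in MEKi 1 and 2. In these lists the high arrays were again MEKi 1 and vehicle 2. For innate lymphoid and NK cell genes (4 measured) the medians were 6.42 and 7.33 in vehicle 1 and 2. They were 7.14 and 4.75 in MEKi 1 and 2, so that vehicle 1 lay nearer to MEKi 1 than to MEKi 2. Klrb1c (NK1.1) lay at 4.14 to 4.26 in all arrays. The part of these cells in the levels of the members was not tested.

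Macrophage and monocyte genes ran the other way, as Ltbr and Tnfsf13 did. Their median (7 measured) was 10.76 and 9.94 in vehicle 1 and 2 and 9.56 and 10.38 in MEKi 1 and 2, and 0 of 7 were higher in vehicle 2 than in vehicle 1 and 1 of 7 in MEKi 1 than in MEKi 2. Csf1r, which encodes the macrophage growth factor receptor, read 10.76 and 9.94 in the vehicle arrays and 9.56 and 10.41 in the MEKi arrays. The keratin gene Krt8, an epithelial marker of the tumor, read 12.92 and 11.75 in the vehicle arrays and 10.54 and 12.11 in the MEKi arrays. Tumor epithelial genes as a list (7 measured) were mixed, with medians of 8.79 and 9.23 in vehicle 1 and 2 and 8.91 and 6.04 in MEKi 1 and 2. Unlike Krt8, 5 of the 7 were higher in MEKi 1 than in MEKi 2, 3 of them past 2-fold, and 2 were lower past 2-fold. In vehicle 2 relative to vehicle 1, 4 were higher, 0 of them past 2-fold, and 1 was lower past 2-fold. Dendritic cell genes (4 measured) had medians of 5.44 and 7.01 in vehicle 1 and 2 and 6.94 and 5.15 in MEKi 1 and 2. Of the 4, 1 was higher past 2-fold in MEKi 1 than in MEKi 2, and 2 in vehicle 2 than in vehicle 1. Flt3 read 5.11 and 8.21 in the vehicle arrays and 7.87 and 4.33 in the MEKi arrays. Itgax lay between 8.49 and 8.94 and Zbtb46 between 5.77 and 6.02, without this pattern. The part of these cells in the level of Tnfsf13b was not tested. Reference genes (7 measured) had medians between 13.19 and 13.35.

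Most neutrophil genes followed the labels, as Tnfsf14 did, in the opposite direction. Of 5 measured, 4 were higher in both MEKi arrays than in both vehicle arrays, an arrangement of 12.1% of all probe sets. The median log2 fold change of all 5 was 1.01. Of the 4, Cxcr2 (4.50 to 5.56) and Mmp8 read low, and Mmp8 was 4.28 in MEKi 1 against 3.99 in vehicle 2. The alarmin gene S100a8 read 6.17 and 7.70 in the vehicle arrays and 9.99 and 11.10 in the MEKi arrays, and its partner S100a9 read 7.09 and 7.92, and 10.29 and 11.87. Neither passed the call, with unadjusted limma p of 0.0084 and 0.0072 and an adjusted p of 1 for both. Genes of other lists had both MEKi arrays below both vehicle arrays, the direction of Tnfsf14. They were 3 of 7 tumor epithelial, 2 of 7 macrophage and monocyte, and 1 of 4 innate lymphoid and NK cell genes. Among all probe sets 9.86% had this arrangement. The part of any of these cells in the Tnfsf14 difference was not tested.

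**Figure D3:**
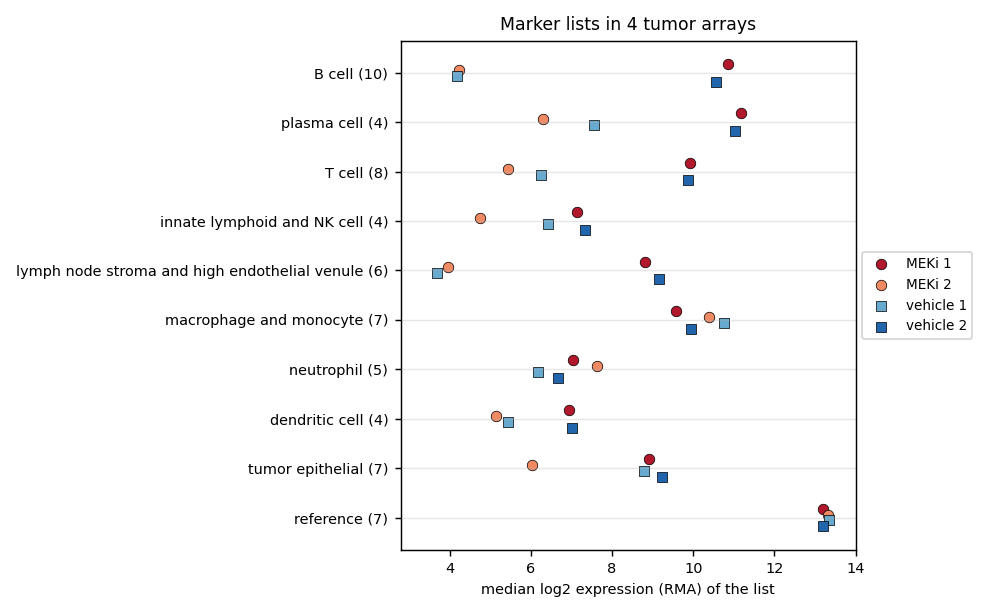
Median log2 expression (RMA, horizontal axis) of the marker lists by array, where circles are MEKi, squares are vehicle and parentheses give how many genes were measured. The B cell points fall at 10.86 (MEKi 1) and 10.56 (vehicle 2) on one side and 4.22 (MEKi 2) and 4.17 (vehicle 1) on the other, and the reference list lies between 13.19 and 13.35.

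Further receptors and binding partners of the family were listed by name (14 listed, 12 measured), and 0 were called higher and 0 lower by label. Between MEKi 1 and MEKi 2, 5 of 12 were higher past 2-fold and 1 was lower, and between vehicle 2 and vehicle 1, 4 were higher and 1 was lower. The widest was Btla, an inhibitory receptor of B and T cells that binds HVEM, at 6.22 and 10.81 in vehicle 1 and 2 and 11.12 and 4.78 in MEKi 1 and 2. Tnfrsf14, which encodes HVEM itself, the second receptor of LIGHT, read 6.81 and 7.71 in the vehicle arrays and 7.88 and 6.35 in the MEKi arrays. Receptors of activated T cells had the same high arrays, with Tnfrsf4 (OX-40) at 7.55 and 9.06 in vehicle 1 and 2 and 9.08 and 6.24 in MEKi 1 and 2, and Tnfrsf25 (DR3) at 5.55 and 7.28, and 7.67 and 5.19. The other 6 genes were lower in MEKi 1 than in MEKi 2 and in vehicle 2 than in vehicle 1, by less than 2-fold except for Tnfrsf12a, which encodes the TWEAK receptor Fn14 found on epithelial and stromal cells. It read 10.37 and 8.77 in the vehicle arrays and 7.82 and 10.54 in the MEKi arrays, in the direction of Ltbr.

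Adaptors and kinases of the alternative NF-κB route were mostly higher in MEKi 1 than in MEKi 2 and in vehicle 2 than in vehicle 1 (13 of 13 and 12 of 13). Of 13 measured of 15 listed, 0 were called in either direction by label, with a median log2 fold change of −0.10. In the MEKi label 6 of 13 were higher past 2-fold in MEKi 1, and in the vehicle label 3 of 13 were higher in vehicle 2, with 0 lower in both. Rel, an NF-κB subunit of lymphocytes, read 4.68 and 6.64 in vehicle 1 and 2 and 6.81 and 4.79 in MEKi 1 and 2. Birc3, which encodes a ubiquitin ligase that restrains this route and is itself an NF-κB target, read 10.26 and 11.18 in the vehicle arrays and 11.54 and 9.61 in the MEKi arrays. Traf5 (7.80 to 9.69), Ikbkb (9.63 to 11.27) and Birc2 (8.88 to 10.16), an adaptor, an IκB kinase subunit and a ubiquitin ligase of this signaling, were also highest in MEKi 1. The central kinase gene Map3k14 (NIK) lay between 7.25 and 7.98 and Nfkb2, the precursor it acts on, between 8.66 and 9.10. Relb, the partner of the processed Nfkb2 product, lay between 8.39 and 9.49.

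Genes listed as tied to lymphotoxin β receptor or BAFF receptor signaling included some of the widest differences of these arrays. All 17 were measured and 0 were called by label, with a median log2 fold change of −0.13. In MEKi 1 relative to MEKi 2, 11 of 17 were higher past 2-fold and 1 lower, and in vehicle 2 relative to vehicle 1, 10 were higher and 0 lower. Of the 17, 7 are also in the marker lists above. Cxcl13, the follicle chemokine of stroma that depends on lymphotoxin in lymphoid tissue, read 6.21 and 11.66 in vehicle 1 and 2 and 12.02 and 4.38 in MEKi 1 and 2. Glycam1, which encodes a mucin of high endothelial venules, spanned the most, at 3.73 and 12.05 in the vehicle arrays and 12.27 and 3.50 in the MEKi arrays. The T zone chemokine gene Ccl19 (5.01 to 11.53), the B cell gene Fcer2a (CD23, 3.82 to 9.48) and Il4i1 (4.77 to 10.78) had the same high arrays. Cxcl12, a chemokine gene of many stromal cells, differed from these in that vehicle 1 was also high, at 9.68 and 11.31 in vehicle 1 and 2 and 11.25 and 5.72 in MEKi 1 and 2. Its log2 fold change was −2.01 (SE 2.11, adjusted p = 1 in limma). The BAFF-responsive survival kinase gene Pim2 read 6.39 and 9.02 in the vehicle arrays and 9.40 and 5.95 in the MEKi arrays. The other survival genes of the list did not share this pattern to the same extent. Mcl1 lay between 11.10 and 11.79 and Bcl2l1, which encodes BCL-XL, between 8.53 and 9.28. Bcl2 read 8.82 and 9.94 in vehicle 1 and 2 and 10.11 and 9.82 in MEKi 1 and 2, while Bcl2a1a was at 10.81 and 10.60 in the vehicle arrays and 10.54 and 9.62 in the MEKi arrays, both below the vehicle arrays. Vcam1, an adhesion gene of activated stroma, was the 1 lower gene and read 8.52 and 8.32 in the vehicle arrays and 7.96 and 9.26 in the MEKi arrays.

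Genes with the most similar pattern were sought for the 7 members that spanned over 2 log2 units. The measure was the Euclidean distance between values centred on their mean over the 4 arrays, among 17087 other genes, in log2 units. For Tnfrsf13c the nearest were Spib, a transcription factor of B cells (0.26), the immunoglobulin segment Igkv6-15 (0.29) and the chemokine Ccl19 (0.38). For Ltb they were Cd69, an early activation marker of lymphocytes (0.16), Ctse (0.17) and Dennd2d (0.21). For Tnfrsf13b they were Arhgap15 (0.08), Arhgap4 (0.10) and the lymphocyte adaptor gene Sash3 (0.10).

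The nearest genes to Tnfsf13b were Treml2 (0.09), Trp53inp1 (0.10) and Ehd3 (0.13). Lta lay nearest to Hepacam2 (0.04), Jakmip1 (0.24) and Tnik (0.27), and Tnfsf11 to Gpr182 (0.07), Cers4 (0.22) and Tnik (0.24). Tnfrsf17 lay nearest to Dok3, an adaptor of B cells and myeloid cells (0.18), Sp100 (0.21) and Gpr182 (0.23). With 4 arrays, such distances describe these arrays only.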

How the data were processed

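Total RNA of 4T1Ch9 tumors was hybridised to 4 Affymetrix MG-430PM arrays, 2 for each label. The authors deposited RMA expression on the log2 scale per probe set, background corrected (RMA is named in the submitters' processing notes) and quantile normalized with the AFFY package in R. No filter or pooling is stated. The table holds 45141 probe sets. Leaving out 104 controls, 28898 have 1 gene symbol (28689 matched by Entrez identifier, 0 symbols changed), 551 have several and 15588 are unnamed here. Each of the 17097 genes is given by its brightest probe set on average.

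All probe sets were fitted by label with lmFit and eBayes of limma 3.58.1 (R 4.3.3, no covariate), with Benjamini-Hochberg adjustment over all 45037. The number of arrays limits the precision. The fit was checked on simulated data. Every member is named, and of each pathway list the 6 genes with the widest range, since none was called. Tnfrsf11a, Tnfrsf11b, Map3k14, Nfkb2, Pim2, Mcl1, Bcl2l1, Bcl2, Bcl2a1a and Vcam1 were added after their values were seen, for their role in the pathway. So were the marker genes named singly. Members and lists (3 of pathways, 10 of markers) were chosen with earlier results of these data known. Some listed genes were not used here. Alternatives were 12 in number, with 1 added after seeing the data. Arrays of the same number deviated from their label means in opposite directions (correlation −0.764 across probe sets), so the numbers were not used as pairs. Of the RefSeq promoters (GRCm38.p6), 11 matched all 10 member genes by symbol, and 5 motifs were searched on both strands. No genome was given. Tables used Python 3.11.15 (pandas 2.3.3, numpy 2.4.6), and figures used matplotlib 3.10.9.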

Additional observations from a re-analysis of the deposited data

How the results depend on the processing

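The count of called probe sets was 0 among all probe sets and 0 among the 14 of the family under every alternative run: a stricter adjusted p of 0.05, unmoderated variances, an intensity trend, leaving out the dimmest probe sets, centring on reference genes, the replicate block, and each array left out in turn. At an unadjusted p under 0.05 the number among all probe sets was 406 in limma and ran from 80 without vehicle 1 to 2027 without MEKi 1. With the replicate number as a block this number was 267, with 0 calls. A crossed pairing was added after seeing the data, because same-numbered arrays deviated in opposite directions. It gave 1447, also with 0 calls. Of the 14 member probe sets, 3 had an unadjusted limma p under 0.05 with the crossed pairing, against 1447 of all 45037. The main setting gave 1 of 14 and 406 of all, and the replicate block 0 of 14 and 267 of all. The crossed pairs were chosen from the likeness of these same values, so their p-values are likely too small and are no support for a difference. Of the alternatives that kept all arrays, only centring and the choice of probe sets can alter a log2 fold change, and among these the 1 change of sign was that of Tnfsf13b, at 0.0692 with the mean of its probe sets (the cause was not tested). Centring on reference genes gave a median of −0.47 for the 10 genes and moved the median of all probe sets from 0.01 to 0.06.

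Among fits that kept all arrays, the unadjusted limma p of Tnfsf14 was under 0.05 in the main setting. It was not with an intensity trend (0.1099), the replicate block (0.1054), unmoderated variances (0.0628) or the dimmest probe sets left out (0.0637). Nor was it with centring (0.0547) or the mean of its probe sets (0.0802). Its p with the crossed pairing is not reported here.

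With each array left out in turn, the log2 fold change ran from −1.85 to 0.86 for Lta, −2.87 to 1.72 for Ltb, −0.77 to 0.61 for Ltbr, −1.79 to 0.66 for Tnfsf11, −2.41 to 1.34 for Tnfsf13b, −0.51 to 0.65 for Tnfsf13, −0.78 to −0.47 for Tnfsf14, −3.25 to 3.45 for Tnfrsf13c, −2.15 to 1.44 for Tnfrsf13b and −1.64 to 0.53 for Tnfrsf17, and the median of the 10 genes from −1.73 to 0.67. The label left with 1 array was assumed to vary like the other label. The lowest adjusted p of a member gene in any of these fits was 0.956. Low signal limits Lta, Tnfrsf17, Tnfsf11 and both probe sets of Tnfsf14, which read low in some or all arrays, and 2 of the 3 probe sets of Tnfsf13b.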
